A study of Mus musculus with 12 samples.

Results

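Glucocorticoid-induced genes were examined in mouse liver through 10 of them: Fkbp5, Tsc22d3, Klf9, Sgk1, Dusp1, Errfi1, Cdkn1a, Tat, Mt1 and Mt2. They were chosen by symbol, as genes long known to respond to glucocorticoids, and stand among 30140 genes that had a probe set with a single symbol. Each of the 10 was read by 1 probe set, and all passed the filter on dim genes. Liver RNA of C57BL/6 males aged 12 weeks was hybridised to 12 Affymetrix whole-transcript arrays, 4 per group. The MatOb F2 group held grandsons of obese Avy/a females, whose viable yellow allele drives agouti expression in many tissues, and the MatOb F3 group held great-grandsons of such females. Control males had lean parents, and their generation is not given in the labels. The labels also do not say whether descendants inherited the allele, at what hour livers were taken or whether mice had been fed. Nothing in the labels states that replicates were different animals, so the tests gauge only how these samples vary, which may include technical variation.

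Glucocorticoids are adrenal steroid hormones that rise with stress, fasting and the active phase of the day. Bound hormone moves the glucocorticoid receptor into the nucleus, where it binds response elements and raises transcription of target genes. In liver these targets include feedback regulators of the receptor, inhibitors of growth factor and stress kinases, enzymes of amino acid breakdown and the metal-binding metallothioneins. Several targets also answer to other signals, such as p53 for Cdkn1a, and zinc and the cytokine interleukin 6 for Mt1 and Mt2.

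Promoter windows of 3 members are shown because they carry the best match to the receptor's palindrome and the motifs shared by the pair that moved most closely together. Each window runs from 250 bases before to 50 bases after an annotated start, taken from RefSeq on build GRCm38.p6, and 19 such windows matched the 10 members. In the Sgk1 window, at chr10:21993640-21993939 on the plus strand, capitals mark a match to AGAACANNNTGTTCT. In the windows of Mt1 (chr8:94178839-94179138, plus strand) and Mt2 (chr8:94172368-94172667, plus strand), capitals mark the metal response element cores TGCACNC and TGCGCNC on either strand.
Sgk1: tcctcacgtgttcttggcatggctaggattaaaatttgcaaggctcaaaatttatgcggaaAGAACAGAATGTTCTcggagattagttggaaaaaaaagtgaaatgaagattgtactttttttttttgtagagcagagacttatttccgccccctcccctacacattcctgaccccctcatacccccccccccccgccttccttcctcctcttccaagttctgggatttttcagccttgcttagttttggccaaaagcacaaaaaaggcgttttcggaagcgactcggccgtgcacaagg
Mt1: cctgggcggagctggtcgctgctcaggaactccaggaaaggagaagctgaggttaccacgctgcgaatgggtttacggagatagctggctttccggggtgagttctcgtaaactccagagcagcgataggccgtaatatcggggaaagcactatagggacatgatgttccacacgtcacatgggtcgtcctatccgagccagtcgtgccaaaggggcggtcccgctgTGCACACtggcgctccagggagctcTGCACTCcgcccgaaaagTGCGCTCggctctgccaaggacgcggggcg
Mt2: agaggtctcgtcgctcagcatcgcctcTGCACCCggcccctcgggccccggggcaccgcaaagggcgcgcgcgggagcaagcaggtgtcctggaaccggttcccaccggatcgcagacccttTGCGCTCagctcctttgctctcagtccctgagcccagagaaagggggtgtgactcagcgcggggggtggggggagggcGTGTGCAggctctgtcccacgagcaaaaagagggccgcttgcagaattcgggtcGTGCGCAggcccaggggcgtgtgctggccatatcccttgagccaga

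The palindrome of Sgk1 lay from −189 to −175 relative to that start, in 1 of 6 windows annotated for the gene. Only 3 of 32851 promoter windows of all genes held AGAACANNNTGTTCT (0.00913%), and 1 arm of it, AGAACA, on either strand, stood in 19% of windows. Of the members, only Sgk1 held the palindrome in a window, and only Sgk1 and Tsc22d3 held AGAACA. Sgk1 had 6 and Tsc22d3 had 3 of the 19 windows of members, whereas the shares of all genes are counted by window. Mt1 held 3 metal response element cores and Mt2 held 4. A core of the form TGCGCNC also occurred in a window of Sgk1 and in that of Dusp1. At least 1 core of either form was present in 25.7% of windows of all genes. At least 3 cores were present in 1.97% of windows of all genes, and at least 4 in 0.517%. The cAMP response element TGACGTCA, found in 1.79% of windows, occurred in a window of Errfi1 from −51 to −44 and in that of Dusp1 from −143 to −136. An E-box, CACGTG, present in 7.15% of windows, occurred in windows of Sgk1, Dusp1 and Fkbp5. All motifs were searched on both strands, the single arm lies within the palindrome, and a match describes letters in the window only.

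Values below are deposited log2 expression values per probe set, so 1 unit is a doubling, and they are listed for replicates 1, 2, 3 and 4 of a group in turn. They are compared between arrays of 1 gene and not between genes. Array medians lay between 4.49 and 4.60. The arrays also fell into a set of 7 with higher and a set of 5 with lower mean signal of 955 small nucleolar RNA genes, at least 4.33 against at most 4.01. The higher set held F2 replicates 1 and 4, F3 replicates 1, 2 and 3, and control replicates 2 and 4. No technical label divides the arrays in this way. Hepatocyte markers were present throughout: 6 of 7 had a probe set in use, Alb, Apoa1, Ttr, Cps1, Trf and Apob, and their mean per array was 12.69 to 12.75 in F2, 12.73 to 12.76 in F3 and 12.62 to 12.74 in controls. In whole liver, fewer cells of a type and less RNA per cell cannot be told apart.

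No member differed between groups beyond the spread of the arrays. In limma across 18725 genes, 0 of the 10 were called at an adjusted p under 0.05 in F2 against control, in F3 against control or in F3 against F2, where 0% of all genes were called in each. The lowest adjusted p of a member was 0.9999 for F2 against control, 0.9998 for F3 against control and 0.9999 for F3 against F2. At an unadjusted p under 0.05, limma listed 0 members and 0.919% of genes for F2 against control, 0 members and 2.93% for F3 against control, and 1 member, Errfi1, and 2.37% for F3 against F2. Groups overlapped for every member in all 3 comparisons. Among all genes, arrays did not overlap for 0.705% in F2 against control, 1.63% in F3 against control and 2.46% in F3 against F2. The F2 and F3 comparisons share their control arrays.

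**Figure D1:**
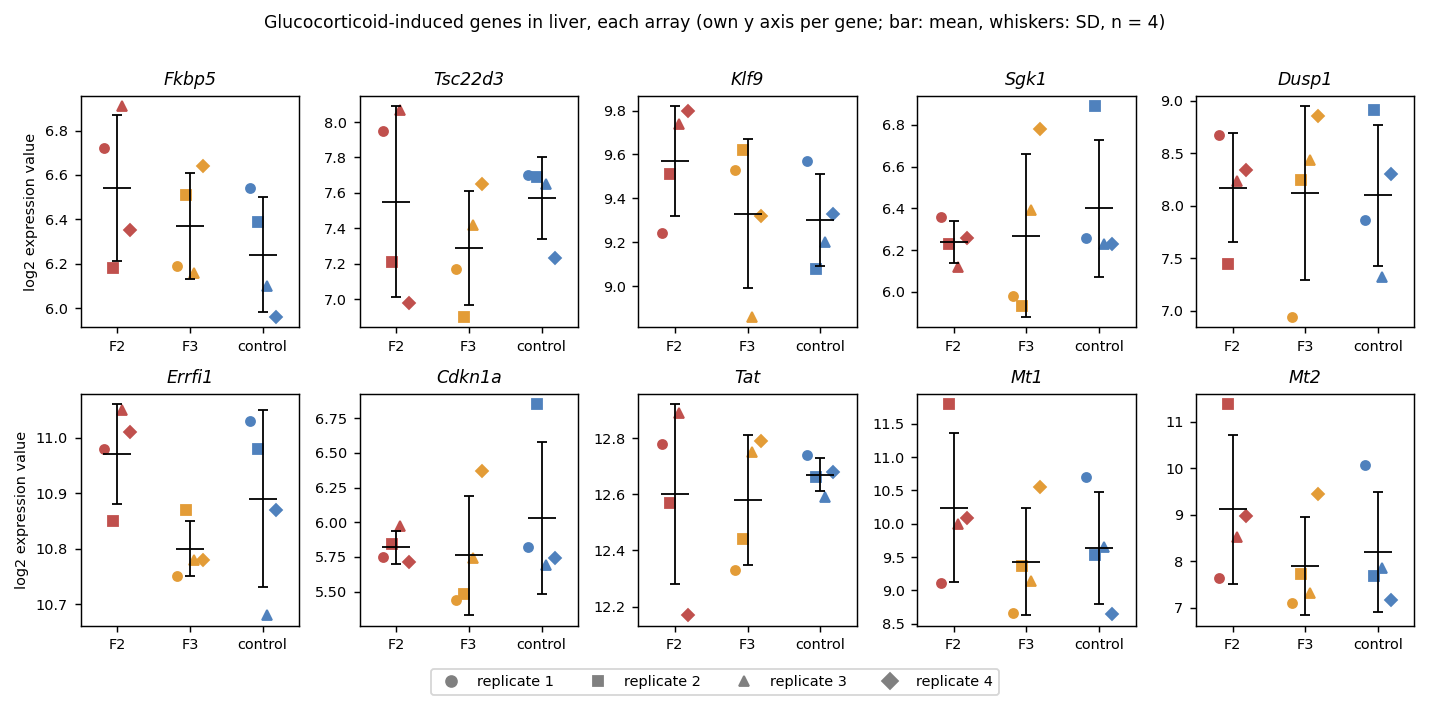
Deposited log2 expression value (y axis, own scale per gene) of each of the 10 glucocorticoid-induced genes on every array, by group (x axis), with symbols for replicate numbers, bars for means and whiskers for SD (n = 4). The groups overlap for every gene, and Mt2 spans 7.11 to 11.38.

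Fkbp5 encodes an Hsp90 co-chaperone that lowers hormone binding by the glucocorticoid receptor and is itself induced by the receptor. Its log2 values were 6.72, 6.18, 6.91 and 6.35 in F2, 6.19, 6.51, 6.16 and 6.64 in F3, and 6.54, 6.39, 6.10 and 5.96 in controls. F2 replicates 1 and 3 lay above all controls, whereas F2 replicate 2 lay below control replicates 1 and 2. The mean was 6.54 ± 0.33 in F2, 6.37 ± 0.24 in F3 and 6.24 ± 0.26 in controls (SD, n = 4 each). F2 exceeded control by 0.30 (SE 0.18, 95% interval −0.09 to 0.68), a 1.23-fold difference that did not pass the test. It ranged from 0.17, without F2 replicate 3, to 0.41, without F2 replicate 2, when any 1 array was left out. The difference was 0.13 (SE 0.18) for F3 against control and −0.17 (SE 0.18) for F3 against F2.

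Tsc22d3 encodes GILZ, a leucine zipper protein that restrains inflammatory transcription factors. Log2 values were 7.95, 7.21, 8.07 and 6.98 in F2, 7.17, 6.90, 7.42 and 7.65 in F3, and 7.70, 7.69, 7.65 and 7.23 in controls. The F2 arrays divided into a pair above every control and a pair below every control, so the group means of F2 and control were nearly equal. F2 averaged 7.55 ± 0.54, F3 7.29 ± 0.32 and controls 7.57 ± 0.23 (SD, n = 4 each). Relative to control, F2 differed by −0.01 (95% interval −0.53 to 0.50) and F3 by −0.28 (95% interval −0.80 to 0.24). With F2 replicate 4 left out, the F2 difference was 0.18.

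Klf9 encodes a Krüppel-like transcription factor that responds to glucocorticoids and to thyroid hormone. On the log2 scale it was 9.24, 9.51, 9.74 and 9.80 in F2, 9.53, 9.62, 8.86 and 9.32 in F3, and 9.57, 9.08, 9.20 and 9.33 in controls. Of the 12 arrays, F2 replicates 3 and 4 were the highest and F3 replicate 3 was the lowest. F2 exceeded control by 0.27 (SE 0.17, 95% interval −0.09 to 0.64), a 1.21-fold difference that did not pass the test. F3 differed from control by 0.04 (SE 0.17) and from F2 by −0.24 (SE 0.17).

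Sgk1 encodes a kinase that controls ion channels and transporters. Its log2 values were 6.36, 6.23, 6.12 and 6.26 in F2, 5.98, 5.93, 6.39 and 6.78 in F3, and 6.26, 6.89, 6.23 and 6.23 in controls. F3 replicate 4 and control replicate 2 stood above the other arrays, and F3 replicates 1 and 2 below them. F2 differed from control by −0.16 (95% interval −0.57 to 0.25) and F3 by −0.13 (95% interval −0.54 to 0.27). Without control replicate 2, the differences were 0.004 for F2 and 0.03 for F3.

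Dusp1 encodes a phosphatase that switches off mitogen-activated protein kinases. The gene had log2 values of 8.67, 7.44, 8.24 and 8.34 in F2, 6.94, 8.25, 8.44 and 8.86 in F3, and 7.86, 8.91, 7.32 and 8.30 in controls. Every group held both a high and a low array, and the 3 means lay within 0.08 of each other. F2 differed from control by 0.08 (95% interval −0.83 to 0.98), F3 from control by 0.02 (−0.88 to 0.93) and F3 from F2 by −0.05 (−0.96 to 0.85). These intervals reach close to 1 unit on either side, so differences of that size were not excluded.

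Errfi1 encodes MIG6, an inhibitor of the epidermal growth factor receptor. Its log2 values were 10.98, 10.85, 11.05 and 11.01 in F2, 10.75, 10.87, 10.78 and 10.78 in F3, and 11.03, 10.98, 10.68 and 10.87 in controls. Of the members it varied least, and all 4 F3 arrays lay below the F2 mean, although F2 replicate 2 fell under F3 replicate 2. F3 averaged 10.80 ± 0.05 and F2 10.97 ± 0.09 (SD, n = 4 each). The difference of −0.18 (SE 0.08, 95% interval −0.35 to −0.01) had an unadjusted limma p of 0.0411 and an adjusted p of 0.9999. F2 differed from control by 0.08 (SE 0.08) and F3 from control by −0.09 (SE 0.08).

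Cdkn1a encodes p21, an inhibitor of cyclin-dependent kinases and a classical target of p53. Log2 values were 5.75, 5.84, 5.97 and 5.71 in F2, 5.44, 5.48, 5.74 and 6.37 in F3, and 5.82, 6.85, 5.69 and 5.74 in controls. The arrays that were high for Sgk1, F3 replicate 4 and control replicate 2, were again the highest. F2 differed from control by −0.21 (95% interval −0.75 to 0.34) and F3 by −0.27 (95% interval −0.81 to 0.27). Without control replicate 2, these differences were 0.07 and 0.004.

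Tat encodes tyrosine aminotransferase, which begins tyrosine breakdown in hepatocytes and was among the first liver enzymes known to be induced by glucocorticoids. Its log2 values were 12.78, 12.57, 12.89 and 12.17 in F2, 12.33, 12.44, 12.75 and 12.79 in F3, and 12.74, 12.66, 12.59 and 12.68 in controls. Controls were close to each other, while both descendant groups held arrays above and below all controls. The SD was 0.32 in F2, 0.23 in F3 and 0.06 in controls. F2 differed from control by −0.06 (95% interval −0.38 to 0.25) and F3 by −0.09 (95% interval −0.40 to 0.22). The difference in spread between groups was not tested.

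Mt1 and Mt2 encode metallothioneins, small cysteine-rich proteins that bind zinc and copper, from neighbouring genes on chromosome 8. Mt1 had log2 values of 9.11, 11.79, 9.99 and 10.08 in F2, 8.66, 9.37, 9.14 and 10.55 in F3, and 10.70, 9.53, 9.65 and 8.65 in controls. Mt2 had log2 values of 7.63, 11.38, 8.52 and 8.97 in F2, 7.11, 7.73, 7.31 and 9.44 in F3, and 10.08, 7.69, 7.86 and 7.16 in controls. For both genes 1 array per group stood at the top, F2 replicate 2, F3 replicate 4 and control replicate 1, and all of these belong to the lower small-RNA set.

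F2 differed from control by 0.61 (SE 0.57, 95% interval −0.62 to 1.84) for Mt1 and by 0.92 (SE 0.81, 95% interval −0.83 to 2.68) for Mt2. These are 1.53-fold and 1.90-fold differences that did not pass the test, and 3 of 4 F2 arrays lay above the control mean for each gene. These sizes depended on single arrays. With any 1 array left out, the Mt1 difference ranged from 0.10 without F2 replicate 2 to 0.99 without F2 replicate 1, and the Mt2 difference from 0.17 without F2 replicate 2 to 1.55 without control replicate 1. F3 differed from control by −0.21 (SE 0.57) for Mt1 and −0.30 (SE 0.81) for Mt2. Against F2, F3 differed by −0.82 (95% interval −2.05 to 0.41) for Mt1 and −1.23 (−2.98 to 0.53) for Mt2, with ranges of −1.20 to −0.30 and −1.74 to −0.47 when any 1 array was left out, the smallest differences being those without F2 replicate 2. The intervals of Mt2 include differences of over 4-fold, so such differences were not excluded at this number of arrays.

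**Figure D2:**
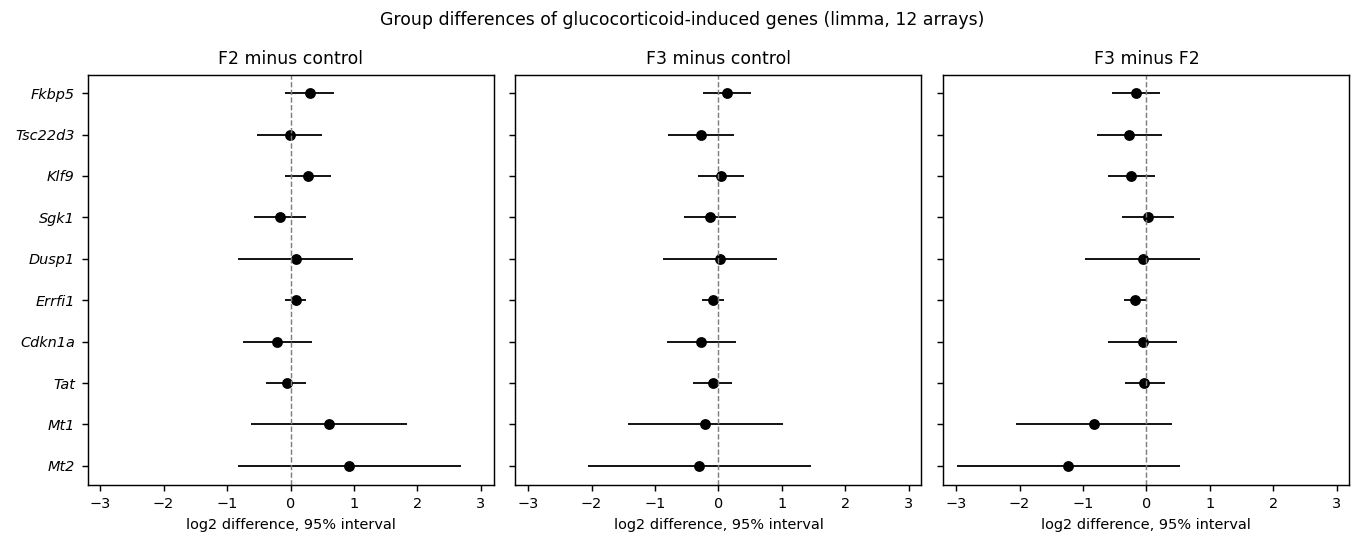
Log2 difference between groups (x axis) of each gene (y axis) in the 3 comparisons, as points with 95% intervals from limma over 12 arrays. The intervals include 0 in all but Errfi1 for F3 minus F2 (−0.35 to −0.01), and those of Mt1 and Mt2 are the widest.

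Over the 10 genes, the median log2 difference was 0.08 for F2 against control, −0.11 for F3 against control and −0.17 for F3 against F2. The median of all genes tested was −0.01, −0.01 and 0.003 in the same comparisons. By sign, 6 members were above 0 and 4 below for F2 against control, 3 above and 7 below for F3 against control, and 1 above and 9 below for F3 against F2. Among all genes, 43.3%, 45.3% and 51.4% were above 0. The mean of the 10 standardised members, a score that weights them equally, was 0.29, 0.15, 0.74 and −0.06 SD units in F2, −0.98, −0.44, −0.41 and 0.68 in F3, and 0.51, 0.55, −0.56 and −0.48 in controls. F3 replicates 1, 2 and 3 were low, F3 replicate 4 was among the highest arrays, and the 3 groups overlapped.

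Most of these genes varied widely between arrays of the same group. The SD within groups was 1.34 for Mt2, 0.93 for Mt1, 0.69 for Dusp1, 0.41 for Cdkn1a and 0.39 for Tsc22d3 on the log2 scale. For Sgk1 it was 0.30, for Fkbp5 0.28, for Klf9 0.27, for Tat 0.23 and for Errfi1 0.11. The median over all 18725 genes was 0.128. Of the members, 8 lay above the 90th percentile of genes, from 92.1 for Klf9 to 99.9 for Mt2, and Tat and Errfi1 lay at 88.4 and 32.7. Between the lowest and the highest array, Mt2 ranged 19.3-fold, Mt1 8.84-fold, Dusp1 3.93-fold and Cdkn1a 2.66-fold, and the other 6 between 1.29-fold for Errfi1 and 2.25-fold for Tsc22d3. This is a description of the arrays and carries no test.

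**Figure D3:**
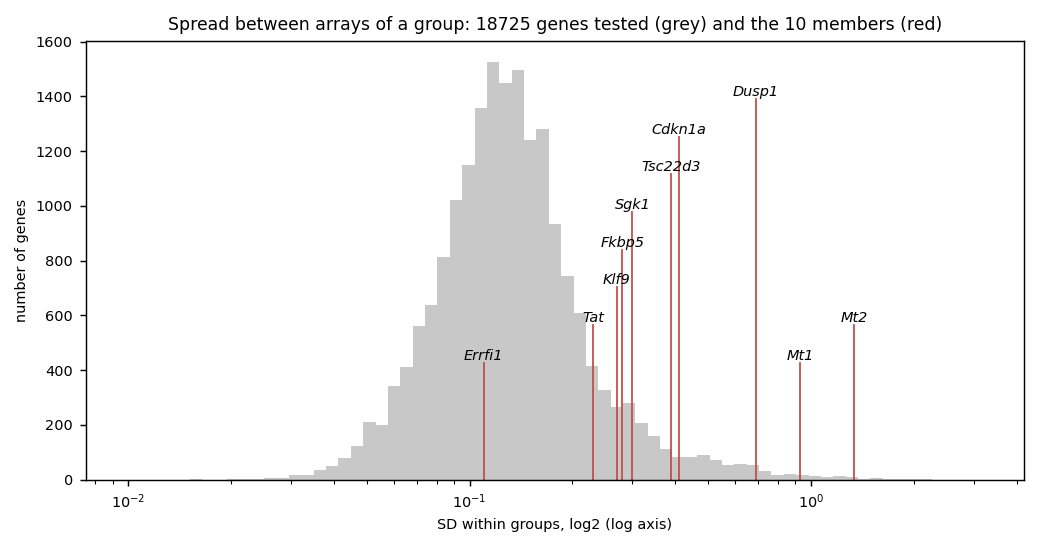
Number of genes (y axis) by SD within groups on the log2 scale (x axis, logarithmic) for the 18725 genes tested, in grey, with red lines at the 10 glucocorticoid-induced genes. Errfi1 (0.11) lies under the median of 0.128, and Mt2 (1.34) is the most variable member.

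Co-variation over the 12 arrays was measured for all 45 pairs of members, with permutation tests (100000 resamples, two-sided) and Benjamini-Hochberg adjustment over the 45 pairs. The correlation was above 0 in 38 pairs and below 0 in 7, with a median r of 0.27. The median r of the members with all genes tested was 0.00. It fell below an adjusted p of 0.05 in 3 pairs by Pearson's r and in 3 pairs by Spearman's rho. Without adjustment, 7 pairs were under 0.05 by each measure. After group means were removed the median r was 0.24, after array set means were removed it was 0.29, and within the 7 arrays of the higher set it was 0.35. The lower set has 5 arrays, too few for a correlation.

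**Figure D4:**
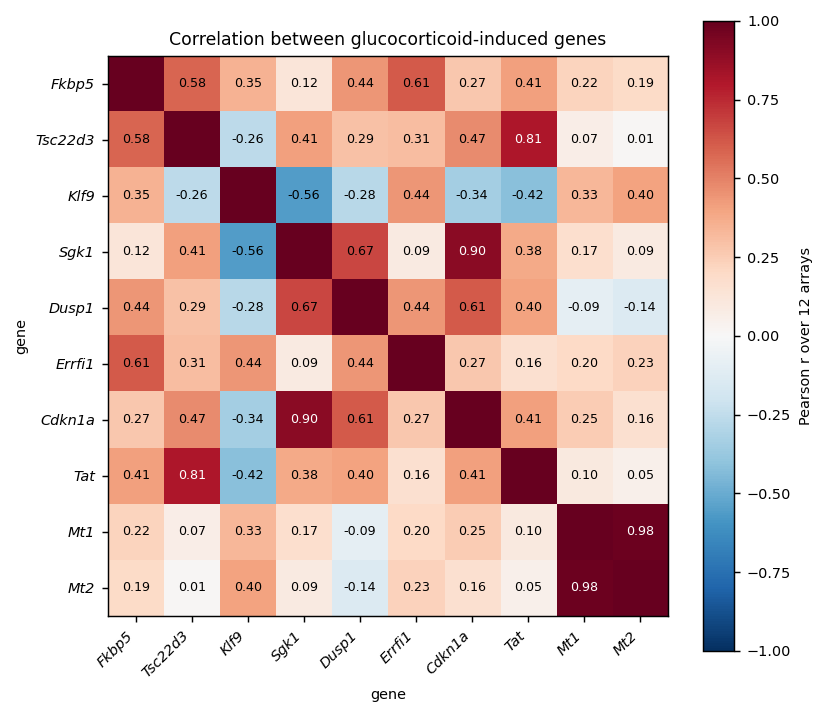
Pearson r over 12 arrays for each pair of the 10 glucocorticoid-induced genes (both axes list the genes; colour runs from −1 to 1). Mt1 with Mt2 (0.98), Sgk1 with Cdkn1a (0.90) and Tsc22d3 with Tat (0.81) are the highest, and Klf9 is negative with 5 of its 9 partners.

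Mt1 and Mt2, whose promoter windows share the metal response element cores shown above, varied together closely over the 12 arrays. Their r was 0.98 and their rho 0.98, each with a permutation p of 1e-05, the smallest these permutations can give, and an adjusted p of 0.00045. Each was the gene most correlated with the other among 18724. The r was 0.96 without the 2 arrays farthest from the median of Mt1, 0.98 after group means were removed and 0.96 after array set means were removed. Within the higher set it was 0.93, with a permutation adjusted p of 0.0859 over 7 arrays. The 2 genes are similar in sequence, and neither cross-hybridisation between their probes nor a part of the shared cores in this co-variation was tested.

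Sgk1 and Cdkn1a had an r of 0.90 (permutation p = 0.00047, adjusted p = 0.0106) and a rho of 0.66 (permutation p = 0.0235, adjusted p = 0.207). Without F3 replicate 4 and control replicate 2, the arrays farthest from the median of Sgk1, r was 0.58, so the size of this correlation rests on those arrays. The r was 0.90 after group means were removed (permutation within groups, adjusted p = 0.278). It was 0.91 after array set means were removed (permutation within sets, adjusted p = 0.0337) and 0.95 within the higher set (permutation adjusted p = 0.0859). Mdm2, another p53 target and the ubiquitin ligase that limits p53, was looked at after its values had been seen. It correlated with Sgk1 (r = 0.92, rho = 0.83) and with Cdkn1a (r = 0.91, rho = 0.63). Mdm2 was 7.63 in F3 replicate 4 and 7.71 in control replicate 2, and 7.12 to 7.38 on the other arrays. The mean over the 8 p53 targets tested, Mdm2 among them, was 6.95 in F3 replicate 4 and 6.89 in control replicate 2. On the other arrays that mean was 6.72 to 6.86, the highest being F2 replicate 3. No mean without Mdm2 was taken, so the mean over this list is no separate evidence. A part of p53 in this pattern was not tested.

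Tsc22d3 and Tat had an r of 0.81 (permutation p = 0.00105, adjusted p = 0.0157) and a rho of 0.84 (permutation p = 0.00117, adjusted p = 0.0263). The r was 0.73 without the 2 arrays farthest from the median of Tsc22d3, and 0.77 to 0.85 with any 1 array left out. After group means were removed it was 0.83 (permutation within groups, adjusted p = 0.266), after array set means 0.77 (adjusted p = 0.111 by permutation) and within the higher set 0.76 (permutation adjusted p = 0.374). The adjusted p was under the threshold for the values as deposited. It was above the threshold after either set of means was removed, over 12 arrays, and within the 7 arrays of the higher set. The r itself changed little, from 0.81 to 0.83 with group means removed and to 0.77 with array set means removed. With group means removed, arrays were permuted only within groups, and with array set means removed, only within sets. Those 2 p-values therefore come from more restricted permutation tests than the p for the values as deposited.

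**Figure D5:**
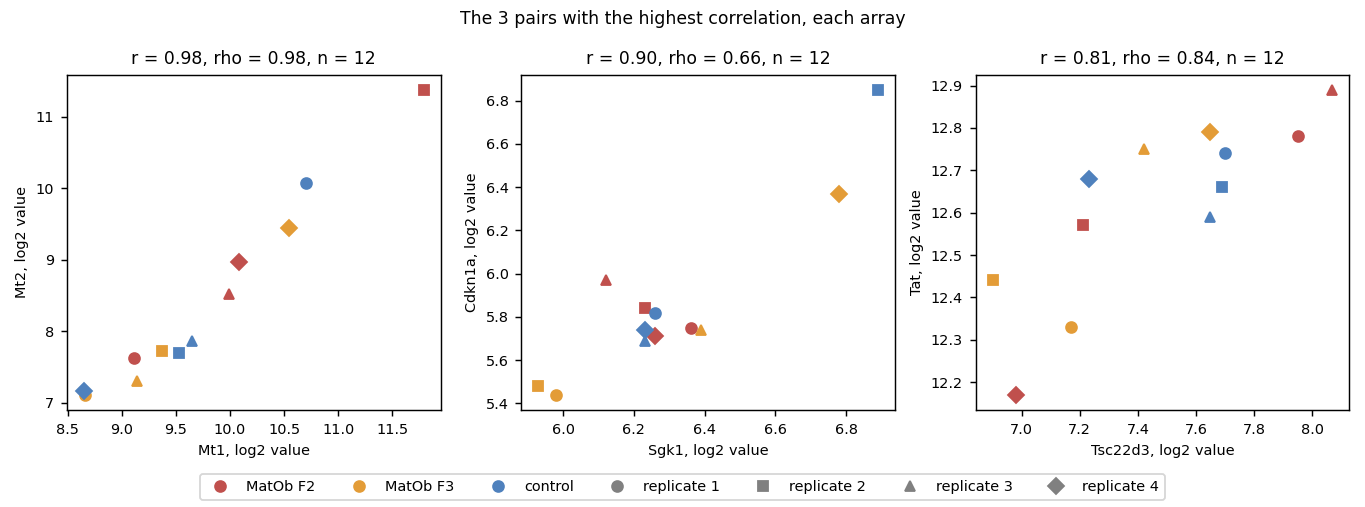
Log2 values of Mt1 and Mt2, of Sgk1 and Cdkn1a, and of Tsc22d3 and Tat on each of 12 arrays, coloured by group with symbols for replicate numbers. Points of the 3 groups mix along each trend, and F3 replicate 4 and control replicate 2 lie apart at the top right for Sgk1 and Cdkn1a.

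Sgk1 and Dusp1 had an r of 0.67 (permutation adjusted p = 0.218) and a rho of 0.80 (permutation adjusted p = 0.0465), and r was 0.43 without the 2 arrays farthest from the median of Sgk1. Fkbp5 with Errfi1, and Dusp1 with Cdkn1a, each had an r of 0.61 (permutation adjusted p = 0.291). Klf9 ran against several of the others. Its r was −0.56 with Sgk1 (permutation adjusted p = 0.327), −0.42 with Tat (0.504) and −0.34 with Cdkn1a (0.614), none of which passed the test. Fkbp5 and Errfi1 were the members with an r above 0 with all 9 partners.

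The genes most alike to the members in pattern were taken from 13138 other protein-coding genes by Pearson r over 12 arrays, as a description. The equally weighted score of the 10 was tracked most closely by Camsap1, which binds microtubule ends (r = 0.94), and Meaf6, a subunit of a histone acetyltransferase complex (0.92). The next were Kmt5a, Pomt2, Sav1 and Mex3c (0.90 each), AU040320 (0.89) and Ippk (0.88). Fkbp5 was tracked by Sec24a, a coat protein of secretory vesicles (0.91), Cpeb2 and Ccny (0.88 each), Dusp11 (0.87) and Pgm2l1 (0.86). The mean of Mt1 and Mt2 was tracked by Lbp, the lipopolysaccharide-binding protein of the acute phase (r = 0.94, rho = 0.90). Cfb, complement factor B, followed (0.91), then H1f2, the zinc transporter gene Slc39a1 and Rab8a (0.90 each).

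The mean of an acute phase list was high on the arrays that were highest for the metallothioneins. Lbp was 10.80 in F2 replicate 2, 9.94 in F3 replicate 4 and 9.73 in control replicate 1, the arrays highest for Mt1 and Mt2, and 8.89 to 9.34 on the others. Lbp was picked by its r with the mean of Mt1 and Mt2, so its values are no separate evidence. The mean over 14 acute phase genes of the interleukin 6 and STAT3 pathway, Lbp among them, was 10.77 in F2 replicate 2, 10.03 in F3 replicate 4 and 10.15 in control replicate 1. It was also high in F3 replicate 3 (9.92), where Mt2 was low (7.31), and 8.63 to 9.25 elsewhere. In F2 replicate 4, the next highest array for Mt1 (10.08) and Mt2 (8.97), it was 8.93. No mean without Lbp was taken. Kupffer cell markers, the resident macrophages of liver, averaged 8.26 in F2 replicate 2, 8.0 in F3 replicate 3 and 7.29 to 7.80 on the others. The part of these signals in the metallothionein values was not tested.

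Of the 14 acute phase genes, limma called 0 in each comparison. At an unadjusted p under 0.05 it listed 1 for F2 against control, where 0.919% of all genes were listed, and 0 in the others. The median difference was 0.28 for F2 against control, with 13 genes above 0, against −0.01 over all genes tested. For F3 against control it was 0.11, with 11 above 0, and for F3 against F2 it was −0.05. Among all genes, 43.3% were above 0 for F2 against control and 45.3% for F3 against control. Il1r1, the interleukin 1 receptor gene, averaged 8.92 in F2 and 8.32 in controls, a difference of 0.60 (SE 0.22) that did not pass after adjustment (limma, adjusted p = 0.9999).

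Genes that receive or handle the hormone were not called in any comparison. Nr3c1, the glucocorticoid receptor gene, averaged 7.79 ± 0.08 in F2, 7.90 ± 0.10 in F3 and 7.80 ± 0.04 in controls (SD, n = 4 each). Hsd11b1, whose enzyme regenerates active corticosterone inside hepatocytes, averaged 7.60 ± 0.09 in F2, 7.69 ± 0.15 in F3 and 7.67 ± 0.17 in controls. Serpina6, which encodes the corticosteroid-binding globulin of plasma, averaged 10.36 ± 0.26 in F2, 10.22 ± 0.29 in F3 and 10.52 ± 0.26 in controls. Akr1d1, a reductase that inactivates steroid hormones, averaged 9.24 in F3, 8.75 in F2 and 9.13 in controls, with a difference of 0.49 (SE 0.20) for F3 against F2 that did not pass the test. Limma called 0 of the 14 receptor and ligand handling genes tested in any comparison. At an unadjusted p under 0.05, it listed 2 of them for F3 against F2, where 2.37% of all genes were listed. In the other comparisons it listed 0 of them. Their median differences were −0.06 for F2 against control, −0.04 for F3 against control and −0.01 for F3 against F2.

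Other glucocorticoid-induced genes, 21 of 22 measured, were likewise not called by limma in any comparison. At an unadjusted p under 0.05, limma listed 1 for F2 against control, 0 for F3 against control and 1 for F3 against F2. Of all genes, it listed 0.919%, 2.93% and 2.37% in the same order. The median difference of these 21 genes was 0.04 for F2 against control (12 above 0, 9 below). It was −0.07 for F3 against control (4 above, 17 below) and −0.11 for F3 against F2 (6 above, 15 below). Among all genes, 43.3%, 45.3% and 51.4% were above 0 in the same order. Pck1, the rate-limiting enzyme of gluconeogenesis, averaged 11.84 ± 0.15 in F2 and 11.56 ± 0.22 in controls (SD, n = 4 each), a difference of 0.28 (SE 0.12, limma adjusted p = 0.9999). Angptl4, an inhibitor of lipoprotein lipase, averaged 7.87 in F3 and 8.48 in F2, a difference of −0.61 (SE 0.28). Per1, a clock gene that glucocorticoids induce and that is also on the clock list, averaged 7.87 ± 0.23 in F3, 8.25 ± 0.33 in F2 and 8.18 ± 0.33 in controls. Nfkbia, which encodes the NF-kappaB inhibitor, differed by −0.29 (SE 0.16) between F3 and control.

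In the remaining lists limma called 0 genes in each comparison. An unadjusted p under 0.05 was reached at most by 3 genes of a list in a comparison, those being immediate early genes in F3 against control. In that comparison 2.93% of all genes reached it. Of 8 metal response genes, Slc39a14, a zinc importer of the acute phase, averaged 9.25 in F2 and 8.99 in controls (difference 0.26, SE 0.11). The median of this list was −0.05 for F2 against control, where Slc39a14 was the only gene above 0 and 7 were below. For F3 against control it was −0.01, with 4 above 0 and 4 below. Among all genes, 43.3% were above 0 for F2 against control and 45.3% for F3 against control. Immediate early genes, which share kinase-driven induction with Dusp1, had a median difference of −0.19 for F3 against control, with 10 of 13 below 0. Among them Fos averaged 5.49 in F3 and 5.90 in controls (difference −0.41, SE 0.18). For F2 against control that list's median was −0.03. The 8 p53 targets tested had medians of −0.02 for F2 and −0.03 for F3 against control, and the 14 clock genes had medians of 0.01 and −0.01. Median differences from control lay between −0.08 and 0.17 for the hepatocyte, Kupffer, endothelial, stellate, cholangiocyte and white cell marker lists, with the highest for 4 stellate cell genes in F3.

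Differences between the array sets were largest for the metallothioneins, which also varied most within groups, and their cause was not tested. Between the higher and the lower set, Mt2 differed by −1.80 and Mt1 by −1.32, Tsc22d3 by −0.32 and Dusp1 by 0.32, and the other 6 members by −0.17 to 0.01. All members overlapped between the sets. With the set as a block, F3 differed from control by 0.11 for Mt1 and 0.13 for Mt2, both opposite in sign to the values without it. The higher set holds 3 of 4 F3 arrays, 2 of 4 F2 arrays and 2 of 4 control arrays.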

How the data were processed

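Male liver RNA was measured on 12 Affymetrix whole-transcript arrays. The authors deposited log2 expression values per probe set. Their tool was Affymetrix Expression Console, according to the submitters' processing notes. Its version, background correction and normalization are not stated there. That the scale is log2 follows from the deposited values themselves, 0.73 to 13.64. Of 72688 probe sets, 32750 were in the platform annotation used here, 30604 with 1 symbol and 2146 with several, and 39938 were unnamed. Symbols were updated through RefSeq GRCm38.p6. The probe set of Fkbp5 carries more than 1 Entrez identifier and was named by its symbol. For genes with several probe sets the brightest was used, and genes with a mean above 4.55, the median of all probe sets, were tested.

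All 12 arrays were fitted with limma 3.58.1 in R 4.3.3 without covariates, with Benjamini-Hochberg adjustment over 18725 genes at 0.05. The script was tested on simulated data. Precision is limited by the number of arrays. The members, gene lists and tests were chosen with earlier results of these data known. Named were all members, the 6 pairs with the highest and the 3 with the lowest r, the genes most alike to the score (8), to Fkbp5 (5) and to the metallothioneins (5) among protein-coding genes without predicted names, and up to 4 genes with the lowest p per list and comparison. Array sets were divided at the widest gap in mean small nucleolar RNA signal. Alternatives were quantile normalization, median centring, no filter, a filter at 5.92, probe set means, other variance models and weights, fewer arrays, blocks, each array set alone and leaving out each array.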

Additional observations from a re-analysis of the deposited data

Results flagged for a closer look

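In 3 cases a value stood far from the others of its group by Dixon's ratio of the gap to the range, among 30 groups of 4 arrays examined, where chance gives about 1 in 20. For Tsc22d3, control replicate 4 was 7.23, against 7.65 to 7.70 in the other controls. For Sgk1, control replicate 2 was 6.89, against 6.23 to 6.26 in the other controls. For Cdkn1a, control replicate 2 was 6.85, against 5.69 to 5.82 in the other controls.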

How the results depend on the processing

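In every setting below 0 of the members tested were called. Groups held 4 arrays, except where an array was left out or an array set was taken alone. Limma called 0 of the genes tested in each comparison under each setting except within the lower array set. There it called 2 for F3 against control (Obp2a, 4.27 higher, and Treh, 1.87 higher) and 3 for F3 against F2 (Obp2a 4.41, Treh 1.80 and Wfdc12 1.81 higher), named after their values were seen. That set holds a lone F3 array, assumed to vary like the other groups. The median member difference for F3 against control there was 0.35, opposite in sign to the −0.11 over all arrays. The replicate number as a block left 0 genes called. Each number occurs once in each group, so this block cannot change a group difference and says nothing of stability. Same-numbered arrays did not deviate together (r of deviations −0.51 to 0.32), so the numbers do not pair the arrays. Cdkn1a fell under the stricter filter and has no value there.

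Of 30 differences of members, 17 turned in sign under some setting other than leaving out an array, and the cause was not tested. For F2 against control these were Tsc22d3 with median centring (0.002), array weights (0.22) and within the higher set (0.003), Dusp1 within the higher set (−0.10), and Tat (0.06) and Cdkn1a (0.15) within the lower set. For F3 against control they were Klf9 with quantile normalization (−0.03), array weights (−0.07) and within the lower set (−0.07), Dusp1 with weights (−0.09), the set block (−0.06) and within the higher set (−0.73), Mt1 with weights (0.02), the block (0.11) and within the lower set (0.37), Mt2 with the block (0.13) and within the lower set (0.47), and Sgk1 (0.53), Tat (0.12) and Cdkn1a (0.61) within the lower set. For F3 against F2 they were Sgk1 with weights (−0.03) and within the higher set (−0.21), Tat with the block (0.02), within the higher (0.03) and the lower set (0.06), and within the lower set Fkbp5 (0.10), Tsc22d3 (0.01), Dusp1 (1.02) and Cdkn1a (0.46).

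With each array left out in turn, 15 of 30 turned. The ranges for F2 against control were −0.19 to 0.18 for Tsc22d3, −0.22 to 0.004 for Sgk1, −0.16 to 0.08 for Tat, −0.18 to 0.35 for Dusp1 and −0.32 to 0.07 for Cdkn1a. For F3 against control they were −0.06 to 0.19 for Klf9, −0.30 to 0.03 for Sgk1, −0.24 to 0.42 for Dusp1, −0.47 to 0.004 for Cdkn1a, −0.58 to 0.15 for Mt1 and −0.82 to 0.33 for Mt2. For F3 against F2 they were −0.14 to 0.14 for Sgk1, −0.17 to 0.07 for Tat, −0.30 to 0.34 for Dusp1 and −0.27 to 0.04 for Cdkn1a. Among differences that did not turn, those for F3 against control ranged from 0.03 to 0.23 for Fkbp5, and those for F2 against control from 0.20 to 0.38 for Klf9 and 0.01 to 0.13 for Errfi1. The median member difference ranged from −0.005 to 0.16 for F2 and from −0.26 to −0.03 for F3 against control, and from −0.27 to −0.07 for F3 against F2. Pairs of members under an adjusted p of 0.05 by permutation were 3 over 12 arrays and 2 to 3 with an array left out. They were 1 after group means were removed, where arrays were permuted only within groups. After array set means were removed they were 2, with arrays permuted only within sets. Within the higher set, which has 7 arrays, there were 0.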
